A study of Rattus norvegicus with 9 samples.

Results

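Gene expression in the prefrontal cortex (PFC) was set against that in the blood of the same rats. The comparison took in 6 of the 9 arrays of the series: 3 of PFC and 3 of blood, 1 of each tissue from the rats numbered 2, 5 and 7. The 3 arrays of hippocampus (HC) stayed out of the fit. All animals were male Wistar rats that had received no treatment. The methods give an age of 6 weeks before a short period of housing. PFC had been punched out of frozen coronal brain slices, and blood had been drawn into tubes that stabilize RNA, so that each brain sample is a mixture of all cells in the punch and each blood sample a mixture of all circulating cells. The labels mention 6 rats, the methods 4 with 1 omitted sample, and the series description 3, so n = 3 rests on the animal numbers of the arrays. Labelled target from 200 ng of total RNA per sample was hybridized to the Rat Gene 1.0 ST array, on which a probe set reads the whole transcript of a gene. Values are RMA (robust multi-array average) levels on a log2 scale, where a difference of 1 is a 2-fold ratio. Of 29214 probe sets with values, 16667 (57.1%) had a mean above 6.2 in PFC, in blood or in both and were compared. The 5 kept probe sets nearest to this cut-off had a higher tissue mean between 6.2001 and 6.2004, and the 5 nearest below it between 6.199 and 6.1999.

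The PFC is an association area of the neocortex, made of glutamatergic projection neurons, GABAergic interneurons, astrocytes, oligodendrocytes, microglia and vessels, and its neurons signal by the regulated fusion of synaptic vesicles. Whole blood is dominated in number by red cells, whose youngest forms, the reticulocytes, still carry RNA for haemoglobin, together with platelets and the lymphoid and myeloid white cells of immune defence. Many proteins of these tissues are made by gene families in which different members serve neurons and blood cells, such as SNAP-25 at the synapse and SNAP-23 in secretory blood cells.

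Transcripts of neurons, astrocytes, oligodendrocytes and synaptic vesicle fusion were higher in PFC, and those of haemoglobin synthesis, lymphocytes, granulocytes and platelets were higher in blood. Of 14 neuronal markers 3 had a mean above 6.2 in blood, and no T cell, B cell, platelet or neutrophil marker had one in PFC. The direction of genes kept through 1 tissue alone was fixed by the rule and is no finding. Of the 16667 probe sets, 7415 (44.5%) were called higher and 5793 (34.8%) lower in PFC, at an adjusted p under 0.05 in limma with the rat as a block, while 3459 (20.75%) were not called. The median absolute difference was 0.98 on the log2 scale, against a median SE of 0.154. In 2266 probe sets the level in PFC was higher by over 2 and in 581 by over 4, whereas 1183 and 205 were lower by as much. The sign was the same in all 3 rats for 7387 of the probe sets called higher and 5749 of those called lower. Differences of single rats, across the 16667 probe sets, correlated at Pearson r = 0.962, 0.975 and 0.964 for the 3 pairs of rats, as a description over genes that are not independent. In such mixed samples, fewer cells of a type and less RNA per cell cannot be told apart. The scatter of tissue means shows both wings of the comparison and the narrow band of uncalled probe sets between them.

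**Figure D1:**
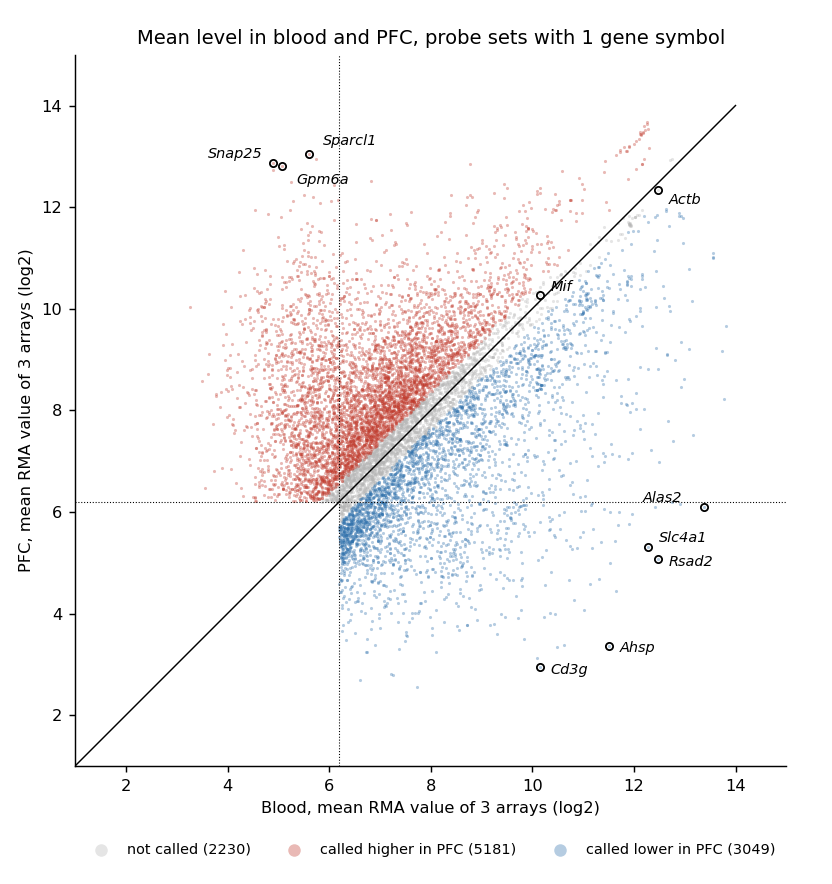
Mean RMA value (log2) of 3 PFC arrays against that of 3 blood arrays for the 10460 tested probe sets with exactly 1 gene symbol, coloured by the call in limma. Dotted lines mark the cut-off of 6.2 and the solid line equal levels; 5181 of these points were called higher in PFC and 3049 lower, as deposited.

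The split between higher and lower depended on how the arrays were scaled to each other. The authors had quantile normalized the arrays, and the array means lay at 6.16 to 6.17 in PFC and 6.2 in blood. The SD over the probe sets of an array was 2.19 to 2.21 in PFC and 1.85 to 1.90 in blood. The deposited values of PFC and blood therefore do not share 1 distribution. The median difference over all tested probe sets was 0.20 as deposited. It shifted by -0.42 when the arrays were set to an equal 75th percentile, by -0.49 with the mean of 11 classical reference genes held equal, and by -1.28 with that of 8 housekeeping genes held equal. Of the called probe sets, 56.14% were higher in PFC as deposited, 38.6% under the 75th percentile, 36.44% under the classical reference genes and 15.71% under the housekeeping panel. A total of 2802 probe sets (16.8% of those tested, 37.79% of those called higher) were higher in PFC under all 4 scalings. All 5793 probe sets called lower (34.8%) stayed lower, which follows from every scaling moving PFC downwards. The counts of groups below are those of the deposited scaling, and the number higher under all 4 scalings is given beside them.

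**Figure D2:**
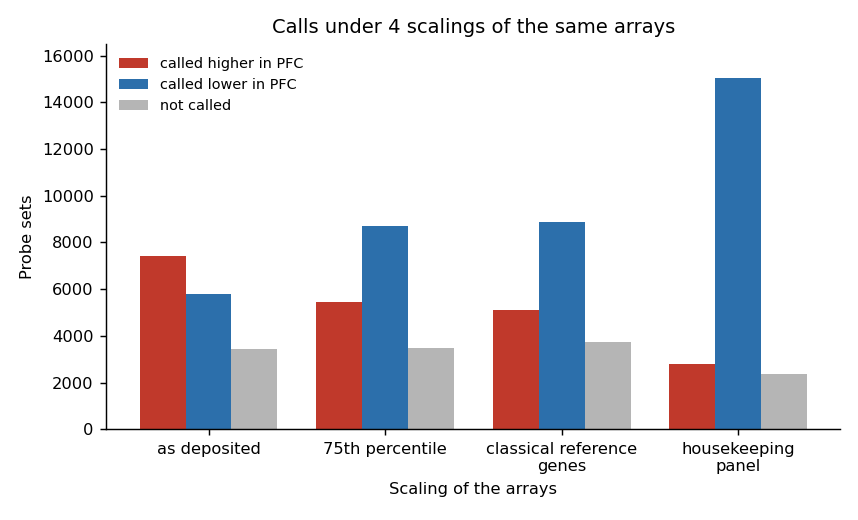
Probe sets (y axis) called higher in PFC, called lower and not called under 4 scalings of the same 6 arrays (x axis). The count higher in PFC falls from 7415 as deposited to 2802 with the housekeeping panel held equal, and the count lower goes from 5793 to 15037.

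The 10 genes widest above blood were genes of neurons and glia. Values are given for rats 2, 5 and 7 in that order, and differences as PFC minus blood with the SE of the limma fit (n = 3 rats). Snap25, the SNARE protein of the synaptic membrane, stood at 12.93, 12.83 and 12.82 in PFC and 4.49, 5.38 and 4.82 in blood, a difference of 7.96 ± 0.20 (adjusted p = 1.28e-08). Vsnl1, a neuronal calcium sensor, was at 12.78, 12.69 and 12.71 in PFC and 4.93, 5.24 and 4.50 in blood (7.84 ± 0.17, adjusted p = 9.63e-09). Gpm6a, a membrane glycoprotein of neurites, was at 12.79, 12.83 and 12.79 in PFC and 5.23, 5.01 and 4.96 in blood (7.73 ± 0.15, adjusted p = 9.63e-09). The 3 PFC values of each gene lay close together, and all were above every blood value. Neither is particular to these genes, which were chosen by width. The tissues did not overlap in 84.29% of all probe sets, and the median SD over rats was 0.0698 for probe sets present in PFC. Sparcl1, an extracellular matrix protein made largely by astrocytes, differed by 7.44 ± 0.16, and Syt1, the calcium sensor of vesicle fusion, by 7.40 ± 0.14. Rtn1 (7.24), Tspan7 (7.2), the AMPA receptor subunit Gria2 (7.07), the brain profilin Pfn2 (6.86) and Gpm6b (6.84) completed the list. Blood means of all but Sparcl1 and Tspan7 were not above 5.58, the 95th percentile in blood of 1020 probe sets of chemosensory receptors (smell, pheromones and taste), which stands here for background. With values raised to that level, the 10 differences were at least 5.58 to 7.44. All 10 remained higher under the housekeeping panel, by 5.56 to 6.68.

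The 10 genes widest below blood were genes of red cells, white cells and the interferon response. Ahsp, the chaperone of alpha globin, stood at 3.14, 3.44 and 3.50 in PFC and 11.54, 11.68 and 11.30 in blood, a difference of -8.15 ± 0.16 (adjusted p = 9.63e-09). Rsad2, the interferon-induced antiviral protein viperin, was at 4.84, 5.40 and 5.01 in PFC and 12.36, 12.61 and 12.43 in blood (-7.38 ± 0.15, adjusted p = 9.63e-09). Alas2, which starts haem synthesis in red cell precursors, was at 5.96, 6.43 and 5.89 in PFC and 13.33, 13.38 and 13.41 in blood (-7.29 ± 0.16, adjusted p = 9.63e-09). In each of these genes every blood value was above every PFC value, next to 84.29% of all probe sets in which the tissues did not overlap. The others were the myeloid surface antigen Ly6c (-7.25), the red cell factor Hemgn (-7.21), the T cell receptor subunit Cd3g (-7.19), the scavenger receptor Cd36 (-7.15), the anion exchanger Slc4a1 (-6.96), the neutrophil product Retnlg (-6.95) and Alox15, a lipoxygenase of maturing reticulocytes (-6.74). In PFC the means of Ahsp, Ly6c, Hemgn, Cd3g, Cd36 and Retnlg were not above the receptor percentile of 4.88. With values raised to it, the 10 differences reached at least -7.38 to -5.26.

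**Figure D3:**
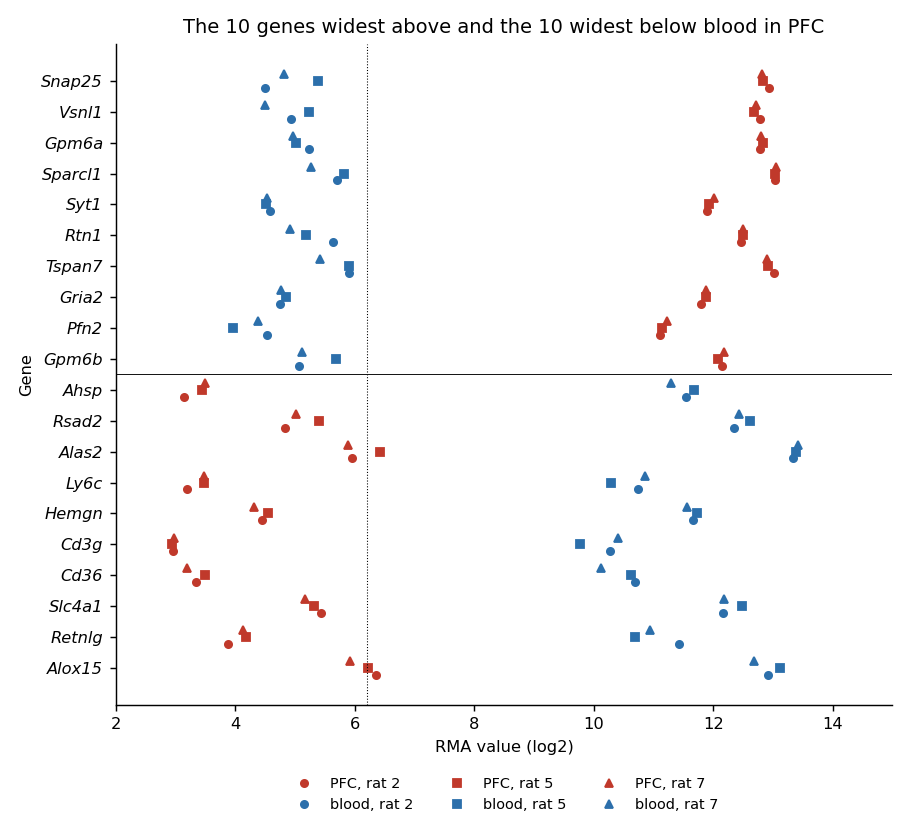
RMA values (log2, x axis) of the 10 genes widest above and the 10 widest below blood in PFC (y axis), 1 symbol per array, shaped by rat and coloured by tissue. The dotted line is the cut-off of 6.2; PFC values of the upper genes lie between 11.10 and 13.04, and blood values of the lower genes between 9.77 and 13.41, with the scale as deposited.

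The tissue labels were set against marker genes of cell types. A gene kept through 1 tissue alone has the higher mean there by the rule, so counts over such genes are no test of direction. Of all probe sets, 44.5% were called higher in PFC, 16.8% under all 4 scalings, and 34.8% lower. Where the mean of the lower tissue was not above its receptor percentile, the data give only a lower limit to the size of a difference, and the difference with values raised to that percentile follows as a limit. All 14 neuronal markers were called higher in PFC, under all 4 scalings, with a median difference of 5.65. They include the glutamatergic Slc17a7 (5.76) and Camk2a (5.68), the GABA-synthesizing enzymes Gad1 (4.47, limit 4.21) and Gad2 (5.35, limit 4.36), and the axonal neurofilament Nefl (6.21, limit 5.65). Of the astrocyte markers, 8 of 8 were higher (7 under all 4 scalings, median 4.88), led by the glutamate transporter Slc1a2 (6.71 ± 0.17, limit 6.36). All 9 oligodendrocyte markers were higher too (8 under all 4 scalings, median 3.41), among them the myelin genes Mbp (4.06) and Mobp (3.88, limit 3.50). With values raised to the receptor percentiles, the medians of these 3 lists were 5.23, 4.68 and 3.10. Vessel markers were higher in 8 of 9 kept, 7 of them under all 4 scalings. The transporters Slco1c1 (4.12, limit 3.96) and Slco1a4 (4.35, limit 3.56) of the blood-brain barrier stood above, and Pecam1, which platelets and white cells also make, below blood (-1.19).

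Microglia, the macrophages of the brain, shared most of their markers with blood. Of 9 markers, 7 were kept, of which 2 were higher in PFC, 3 lower and 2 not called, and the median of 0.19 turned to -1.65 under the housekeeping panel. Sall1 (1.49 ± 0.19) and Gpr34 (1.46 ± 0.15, limit 0.95) were higher as deposited, whereas P2ry12 (-1.02 ± 0.16), Aif1 (-0.88 ± 0.14) and Csf1r (-0.48 ± 0.14) were lower. P2ry12 is also the ADP receptor of platelets, and Csf1r is also made by monocytes. Markers of neighbouring brain structures were read as well. Of 7 choroid plexus markers, 2 were kept and both were lower in PFC, of which Aqp1 (-5.70) is also the water channel of red cells, while the plexus transport protein Ttr had a mean under the cut-off in both tissues. Of 8 striatal markers, all 8 were above the receptor percentile in PFC and 4 had a mean above 6.2 there. The 5 kept were Penk (2.16, limit 2.11), Drd1 (0.73) and Ppp1r1b (0.48), which were higher, and Adora2a (-0.85) and Gpr6 (-0.47), which were lower. Compared with HC, 3 of these 5 were higher in PFC and none lower. Under the housekeeping panel Drd1 and Ppp1r1b lay below 0.

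Next to 34.8% of all probe sets, every kept marker of red cells (10), platelets (5), T cells (12), B cells (7), NK and cytotoxic cells (8) and neutrophils (10) was called lower in PFC, with group medians of -4.91, -4.38, -3.87, -3.50, -2.92 and -4.31. The platelet chemokine Pf4 (-6.15 ± 0.16), the B cell antigen Ms4a1 (-4.87 ± 0.18, limit -3.67), the NK receptor Klrk1 (-5.70 ± 0.19, limit -4.42), and the chemokine receptor Cxcr2 of neutrophils (-5.80 ± 0.14, limit -4.83) were among them. With values raised to the receptor percentiles, the 6 medians were -4.71, -3.65, -3.60, -2.56, -2.57 and -3.65. Of 10 monocyte markers, 8 were lower and Vcan was not called, whereas Nr4a1 was higher in PFC (2.04 ± 0.14). Nr4a1 encodes the nuclear receptor Nur77, which is also an activity-regulated gene of neurons. In PFC no marker of T cells, B cells, platelets or neutrophils had a mean above 6.2, and 7 of 12, 3 of 7, 3 of 5 and 4 of 11 were above the receptor percentile. Of the NK and cytotoxic markers, 1 had a mean above 6.2 in PFC. The markers kept through blood alone could therefore only be lower in PFC, and their direction is no finding.

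Red cell transcripts were measurable in PFC. Hbb, the beta globin, was at 9.56, 10.11 and 9.31 in PFC and 13.85, 13.83 and 13.74 in blood, and Hbb-b1 at 9.06, 9.69 and 8.76 in PFC and 13.74, 13.75 and 13.68 in blood. These globin genes are close copies, and their probe sets may read each other's transcripts. Of 10 red cell markers, 4 had a PFC mean above 6.2 and 8 lay above the receptor percentile. Rat 5 had the highest PFC value of Hbb, Hbb-b1 and Alas2. The 10 markers together summed to 10.62 to 11.31 on the log2 scale in PFC, against 15.63 to 15.77 in blood. Compared with HC, 5 of the 10 were higher in PFC and none lower, with a median of 0.49. The part of blood in the PFC punches in the differences reported here was not tested.

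**Figure D4:**
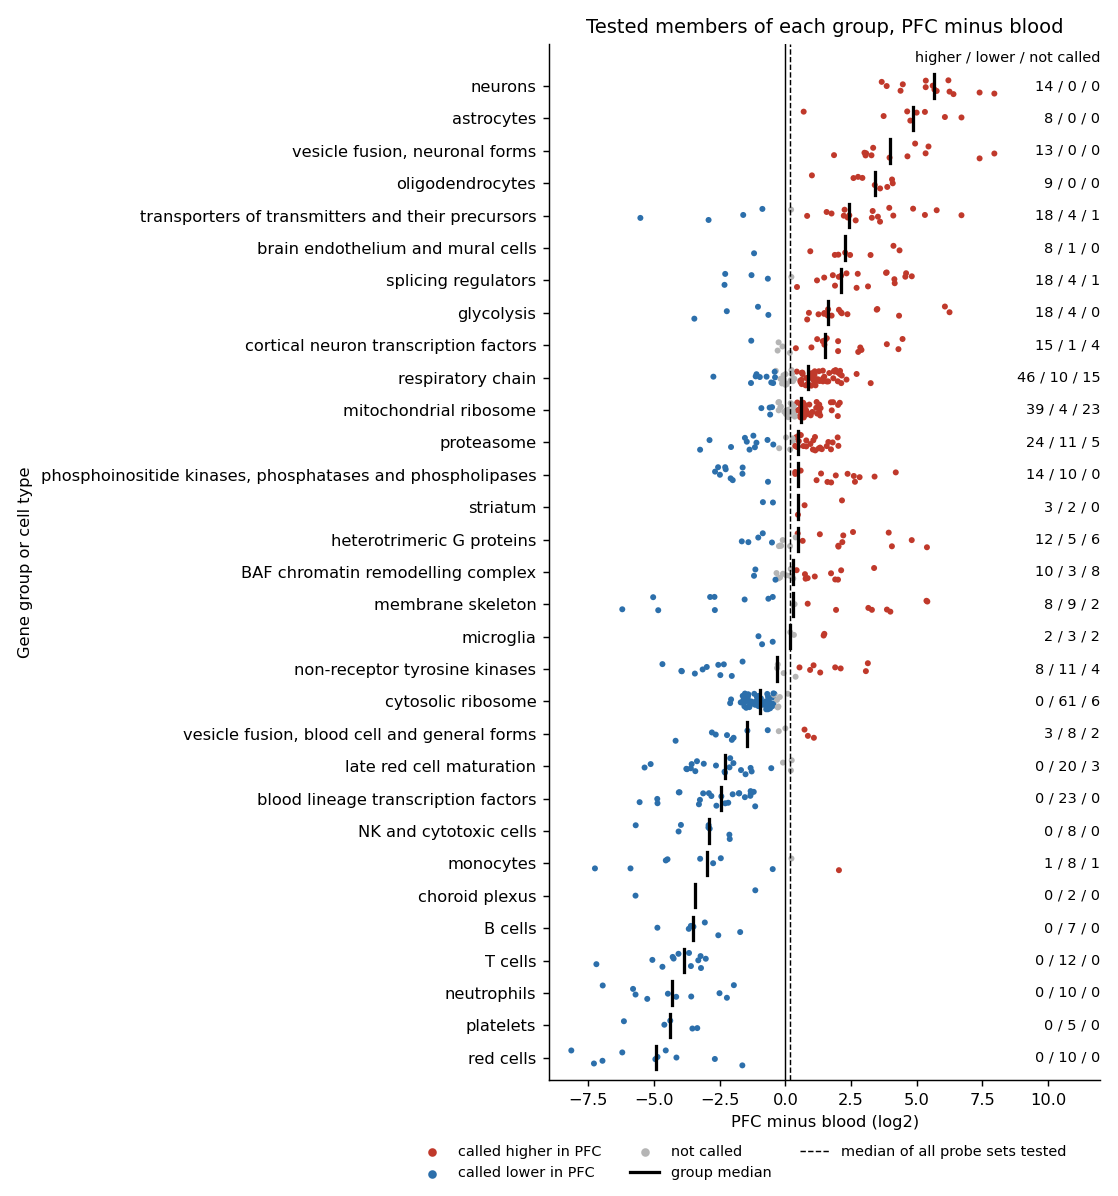
PFC minus blood (log2, x axis) of every tested member of 31 cell type and gene groups (y axis), each point 1 gene, with the median of each group and, at the right, the members called higher, lower and not called as deposited. Medians run from 5.65 in neurons to -4.91 in red cells; those of microglia, striatum, membrane skeleton, G proteins, phosphoinositide enzymes, BAF complex, proteasome, respiratory chain and mitochondrial ribosome turn below 0 under the housekeeping panel.

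Genes of vesicle fusion differed in level between the tissues by form, with no full exchange of members. Of 13 neuronal forms, 5 also had a mean above 6.2 in blood, and of the blood cell and general forms, 8 had one in PFC. Among all probe sets 44.5% were called higher, 16.8% under all 4 scalings, and 34.8% lower. All 13 measured neuronal forms were higher in PFC (12 under all 4 scalings), with a median of 3.97. Next to Snap25 and Syt1 these were the vesicle SNARE Vamp2, at 9.74, 9.68 and 9.76 in PFC and 7.18, 6.47 and 6.31 in blood (3.08 ± 0.19), the priming factor Unc13a (3.01 ± 0.15), the complexins Cplx1 (4.94, limit 4.81) and Cplx2 (3.28), and Rab3a, the GTPase of synaptic vesicles (4.65 ± 0.15). Of 13 kept forms that serve blood cells or cells in general, 8 were lower and 3 higher, with a median of -1.44. Snap23, the relative of Snap25 outside neurons, was at 7.80, 7.84 and 7.92 in PFC and 9.89, 9.81 and 9.76 in blood (-1.97 ± 0.14). Unc13d, which primes the granules of cytotoxic cells, was at 5.00, 4.71 and 4.88 in PFC and 7.45, 7.41 and 7.69 in blood (-2.65 ± 0.15, limit -2.63), Rab27a of secretory granules differed by -2.80 ± 0.17 and Vamp8 by -1.44 ± 0.16, and Stx11 was lower too (-4.18 ± 0.14, limit -3.70). Stx7 (1.09) and Vamp7 (0.86), SNAREs of late endosomes, and Stx4 (0.73) were the 3 higher in PFC as deposited, and all 3 lay below 0 under the housekeeping panel.

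A list of 46 pairs of related genes, in which 1 form is known from brain and the other from blood or other cells, was read from the same fit. In 34 pairs both genes were kept. The brain form was higher and the other form lower in 22 pairs, 17 of them under all 4 scalings. Both were higher in 6 pairs and both lower in 2, in no pair was the brain form lower and the other form higher, and in 4 pairs 1 gene was not called. These are counts over a list chosen by what the genes are known for and with earlier results of these data known. They are therefore no test of these families, and are to be read against 44.5% of all probe sets called higher and 34.8% called lower.

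**Figure D5:**
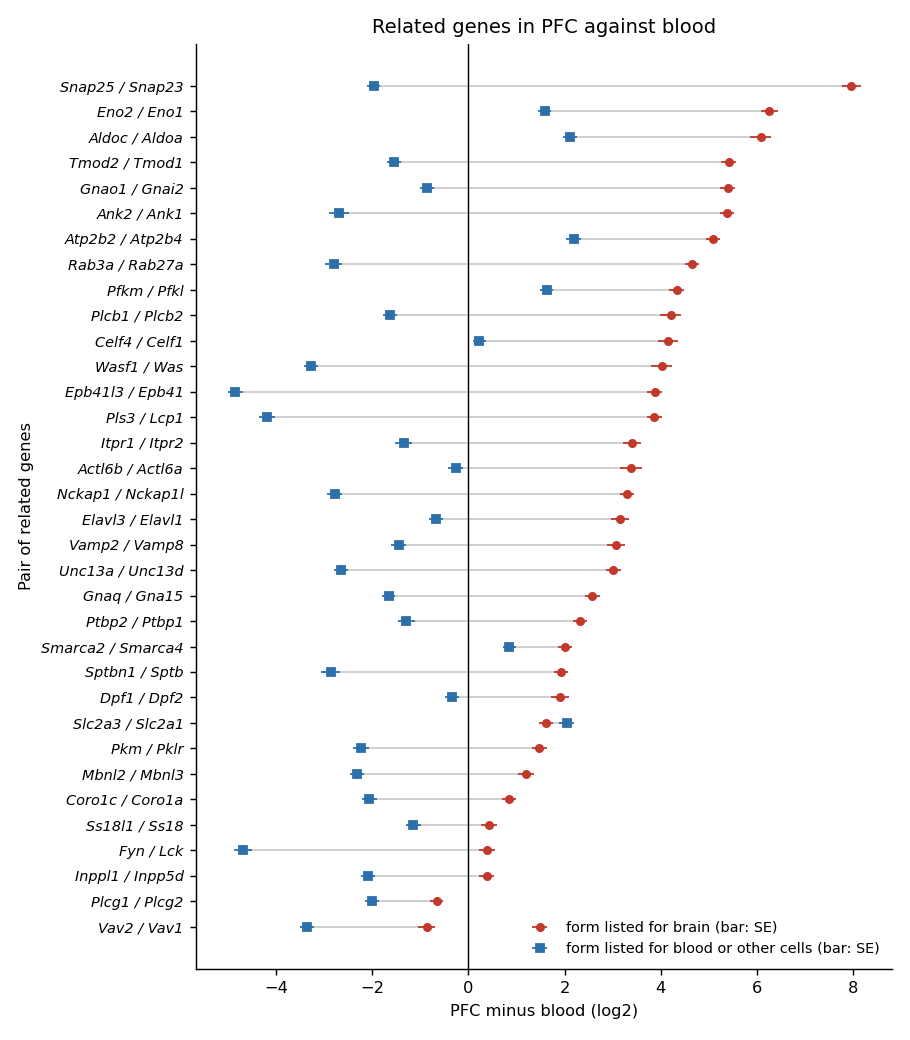
PFC minus blood (log2, x axis) with its SE for both genes of 34 pairs (y axis), the form listed for brain as a circle and the other form as a square. The widest gap is that of Snap25 (7.96) and Snap23 (-1.97). Under the housekeeping panel the brain forms Coro1c, Mbnl2, Inppl1, Ss18l1 and Fyn and the second forms Smarca4 and Celf1 turn from above 0 to below it.

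The membrane skeleton is the spectrin and actin network under the plasma membrane, built from 1 set of genes in red cells and a related set in neurons. Of 19 members, 8 were higher (7 under all 4 scalings) and 9 lower, next to 44.5%, 16.8% and 34.8% of all probe sets. Ank2, an ankyrin of axons, was at 11.05, 10.99 and 11.01 in PFC and 5.80, 5.65 and 5.47 in blood (5.37 ± 0.14), whereas Ank1, the ankyrin of red cells, was at 7.39, 7.24 and 7.05 in PFC and 9.61, 10.52 and 9.60 in blood (-2.68 ± 0.21). The protein 4.1 relative Epb41l3 was higher (3.87 ± 0.15, limit 3.86) and Epb41 of red cells lower (-4.84 ± 0.16). Tropomodulins, which cap actin filaments, differed in the same way, Tmod2 being higher (5.41 ± 0.16, limit 4.41) and Tmod1 lower (-1.55 ± 0.14), and so did beta spectrins, with Sptbn1 at 1.93 ± 0.14 and Sptb at -2.86 ± 0.19. The lowest members were Epb42 (-6.21) and Stom (-5.03), both proteins of the red cell membrane.

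The actin cytoskeleton moves white cells and shapes dendritic spines, and 3 pairs of its regulators are described here. In the complexes that activate Arp2/3, Wasf1 was at 9.74, 9.70 and 9.70 in PFC and 5.06, 5.97 and 6.05 in blood (4.02 ± 0.21), while Was, the protein mutated in Wiskott-Aldrich syndrome, was at 5.35, 5.24 and 5.31 in PFC and 8.71, 8.34 and 8.66 in blood (-3.27 ± 0.14). The WAVE subunit Nckap1 was higher (3.31 ± 0.15) and its haematopoietic relative Nckap1l lower (-2.78 ± 0.16). The actin-bundling plastins were opposed as well, Pls3 being higher (3.86 ± 0.16, limit 2.82) and Lcp1, the plastin of leukocytes, lower (-4.19 ± 0.16).

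Signal transducers had members in both directions. Their counts lie beside 44.5% of all probe sets called higher, 16.8% higher under all 4 scalings and 34.8% lower, and nothing particular to these families is read from them. Of 23 non-receptor tyrosine kinases, 8 were higher (4 under all 4 scalings) and 11 lower. The kinases of lymphocyte antigen receptors Lck (-4.68 ± 0.19), Syk (-3.15 ± 0.15), Btk (-3.44 ± 0.16, limit -2.56) and Zap70 (-2.47 ± 0.18) were all lower. The focal adhesion kinase Ptk2 (3.14 ± 0.15) and Yes1 (3.07 ± 0.17, limit 1.23) were higher, and Fyn, a kinase of both neurons and T cells, stood at 9.48, 9.42 and 9.42 in PFC and 9.29, 8.69 and 9.17 in blood and was not called (adjusted p = 0.0505 in limma). Among heterotrimeric G proteins 12 of 23 were higher (9 under all 4 scalings) and 5 lower. Gnao1, the abundant G alpha subunit of brain, was at 10.91, 10.85 and 10.91 in PFC and 5.84, 5.32 and 5.33 in blood (5.39 ± 0.16, limit 5.31). Gnai1 (4.81, limit 4.52), Gnb5 (4.06) and Gng3 (3.94) were higher too, whereas Gnai2 (-0.86 ± 0.14) and Gna15 (-1.66 ± 0.14) were lower. Of 24 enzymes of phosphoinositide signalling 14 were higher (8 under all 4 scalings) and 10 lower. Plcb1 (4.21 ± 0.22, limit 4.12) and the synaptic phosphatase Synj1 (2.61 ± 0.16) stood above blood, and Plcb2 (-1.62 ± 0.14), Pik3cd (-2.68 ± 0.18), the PI3 kinase subunit of leukocytes, and Inpp5d (-2.08 ± 0.14), the phosphatase SHIP1, below it.

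Regulators of alternative splicing and RNA stability were mostly higher in PFC. Of 23 members 18 were higher (15 under all 4 scalings) and 4 lower, next to 44.5%, 16.8% and 34.8% of all probe sets, with a median of 2.13. A mean above 6.2 in blood was found for 14 of the 23, and members kept through PFC alone could only be higher there. The 4 lower ones were Elavl1 (-0.67 ± 0.14), Ptbp1 (-1.29 ± 0.18), Ptbp3 (-2.29 ± 0.15) and Mbnl3 (-2.32 ± 0.14, limit -1.67). Each has a relative that was higher: Elavl3 (3.15 ± 0.19), Ptbp2, at 9.60, 9.63 and 9.77 in PFC and 7.45, 7.14 and 7.42 in blood (2.33 ± 0.15), and Mbnl2 (1.21 ± 0.17), of which Mbnl2 turned to -0.07 under the housekeeping panel. Ptbp1 stood at 7.86, 7.74 and 7.65 in PFC and 9.16, 8.62 and 9.33 in blood. Neuronal differentiation is known to replace Ptbp1 by Ptbp2. The neuronal splicing factors Rbfox1 (4.60), Khdrbs3 (4.82) and Elavl2 (4.57, limit 3.18) were higher. In the BAF chromatin remodelling complex, which exchanges subunits as neurons mature, 10 of 21 members were higher (4 under all 4 scalings) and 3 lower, the higher share being near the 44.5% and 16.8% of all probe sets. The neuronal actin-like subunit Actl6b was at 8.65, 8.68 and 8.72 in PFC and 5.92, 4.67 and 5.33 in blood (3.38 ± 0.23, limit 3.11), and Actl6a of dividing cells at 6.82, 6.91 and 6.91 in PFC and 7.01, 7.02 and 7.41 in blood (-0.26 ± 0.15, adjusted p = 0.136 in limma, not called). Ss18 was lower (-1.14 ± 0.16), and its neuronal relative Ss18l1 (0.43 ± 0.17) was higher as deposited only.

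All 23 kept transcription factors of the blood lineages were lower in PFC, next to 34.8% of all probe sets, with a median of -2.44. A further 2 were under the cut-off, and 8 of the 23 had a mean above 6.2 in PFC. The factors kept through blood alone could only be lower. Gata1, the master factor of red cells and megakaryocytes, was at 5.07, 4.62 and 4.79 in PFC and 10.26, 10.58 and 10.28 in blood (-5.55 ± 0.18, limit -5.49). The red cell factors Nfe2 (-4.88 ± 0.15) and Klf1 (-4.87 ± 0.16), the T cell factor Tcf7 (-4.06 ± 0.19), the lymphoid Ikzf1 (-4.03 ± 0.16, limit -3.96) and the myeloid Spi1, also called PU.1 (-2.91 ± 0.15), were among them. Of 20 kept factors of cortical neurons, 15 were higher (8 under all 4 scalings), next to 44.5% and 16.8% of all probe sets, with a median of 1.5. A mean above 6.2 in blood was found for 11 of the 20, and those kept through PFC alone could only be higher there. Neurod6 of projection neurons was at 9.17, 9.55 and 9.72 in PFC and 5.09, 5.34 and 4.62 in blood (4.46 ± 0.21, limit 3.90), and Nfib (4.31 ± 0.20, limit 3.33), Myt1l (3.87 ± 0.14, limit 3.75), Fezf2 of deep layers (2.90 ± 0.16) and the activity-regulated Npas4 (2.78 ± 0.22, limit 2.73) were higher. Cux1, listed for upper cortical layers, was lower (-1.30 ± 0.16), and Lhx6, Pou3f1, Pou3f2 and Pou3f3 were not called.

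The promoters of the genes widest apart are shown for the DNA words these factors are known to bind. Windows of the 250 bases before and 50 after each start were taken from RefSeq (rat assembly GRCr8) and matched 8158 of 9823 tested genes. Below are the 250 bases before the start of 3 genes, each the widest in its direction whose window held the word searched for, in lower case with the word in capitals.
Alas2 (chrX:22895200-22895449, + strand, AGATAA, the word of GATA factors): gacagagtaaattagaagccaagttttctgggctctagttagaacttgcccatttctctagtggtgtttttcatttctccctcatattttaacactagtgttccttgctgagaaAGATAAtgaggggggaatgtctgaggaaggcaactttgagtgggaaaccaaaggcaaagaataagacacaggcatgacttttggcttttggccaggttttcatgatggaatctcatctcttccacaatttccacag
Gimap4 (chr4:78967047-78967296, + strand, GAGGAAGT, the word of ETS factors such as PU.1, here on the reverse strand): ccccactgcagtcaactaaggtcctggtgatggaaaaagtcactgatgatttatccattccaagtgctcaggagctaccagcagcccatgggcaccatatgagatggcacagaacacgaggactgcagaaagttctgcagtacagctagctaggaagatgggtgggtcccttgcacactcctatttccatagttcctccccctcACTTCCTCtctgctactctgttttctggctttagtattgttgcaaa
Mapk10 (chr14:6802044-6802293, + strand, TGACGTCA, the word of CREB factors): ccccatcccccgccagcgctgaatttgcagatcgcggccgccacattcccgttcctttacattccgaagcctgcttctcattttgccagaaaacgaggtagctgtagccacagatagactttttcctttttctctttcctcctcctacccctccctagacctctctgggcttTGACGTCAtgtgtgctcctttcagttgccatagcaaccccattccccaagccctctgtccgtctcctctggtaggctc
Alas2 differed by -7.29. Gimap4, a GTPase of lymphocytes, was lower in PFC (-5.69 ± 0.16, limit -5.37), and Mapk10, the neuronal kinase JNK3, higher (5.54 ± 0.18). AGATAA stood on either strand in 10.63% of 583 windows of genes higher in blood by over 2, in 5.58% of 1201 windows of genes higher in PFC by over 2, in 6.24% of all tested genes and in 11.27% of all 27457 windows. GAGGAAGT stood in 7.03%, 1.75%, 2.79% and 2.44% of the same sets, and TGACGTCA in 1.54%, 2.66%, 3.08% and 1.91%. CCACACCC, the word of KLF factors, stood in 4.46%, 3.25%, 3.58% and 3.23%. The median GC content of the windows was 56.67% for genes higher in blood, 62.33% for genes higher in PFC, 61.0% for all tested genes and 52.33% for all windows, so that the sets differ in base composition as well. These shares describe the letters in the windows and were not tested.

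Late red cell maturation takes in haem synthesis, the removal of mitochondria and protection from oxidants. Of 23 genes, 20 were lower in PFC and 3 not called, next to 34.8% of all probe sets called lower, with a median of -2.29. The mitochondrial iron importer Slc25a37 was at 6.06, 6.05 and 6.05 in PFC and 11.46, 11.49 and 11.29 in blood (-5.36 ± 0.14), and ferrochelatase Fech, the last enzyme of haem synthesis, at 7.15, 7.31 and 7.19 in PFC and 12.26, 12.43 and 12.35 in blood (-5.13 ± 0.14). Bnip3l, the receptor for removal of mitochondria (-2.31 ± 0.14), catalase Cat (-3.77 ± 0.14), Prdx2 (-2.64 ± 0.14) and the ferritin receptor Ncoa4 (-3.57 ± 0.14) were lower as well. The transferrin receptor Tfrc, at 9.16, 9.34 and 9.42 in PFC and 9.14, 9.60 and 8.46 in blood, was not called (adjusted p = 0.341 in limma). Of these 23 genes, 20 had a mean above 6.2 in PFC too, so that most were present in both tissues.

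Glycolytic genes were mostly higher in PFC as deposited. Of 22 kept, 18 were higher (10 under all 4 scalings) and 4 lower, next to 44.5%, 16.8% and 34.8% of all probe sets, with a median of 1.62. Eno2, the neuronal enolase, was at 12.10, 12.11 and 12.02 in PFC and 5.74, 5.51 and 6.22 in blood (6.25 ± 0.18), and the general enolase Eno1 at 12.08, 12.13 and 12.16 in PFC and 10.45, 10.48 and 10.67 in blood (1.59 ± 0.14). The aldolase Aldoc of brain (6.08 ± 0.22) and Aldoa (2.12 ± 0.14), and the phosphofructokinases Pfkm (4.33 ± 0.15) and Pfkl (1.63 ± 0.14), were higher together as well. The 4 lower ones were Bpgm (-3.46 ± 0.14), which makes 2,3-bisphosphoglycerate in red cells, the pyruvate kinase Pklr of red cells and liver (-2.23 ± 0.16), Pgam2 (-1.04 ± 0.17) and Hk2 (-0.65 ± 0.14). Transporters of transmitters and their precursors were higher in 18 of 23 kept (16 under all 4 scalings) and lower in 4, beside the same shares of all probe sets. Of these 23, 9 had a mean above 6.2 in blood, and those kept through PFC alone could only be higher there. The 4 were Slc6a4, the serotonin transporter, which platelets carry, at 5.25, 5.06 and 4.96 in PFC and 7.84, 7.82 and 8.38 in blood (-2.92 ± 0.18), and the amino acid transporter genes Slc38a5 (-5.52 ± 0.15), Slc7a5 (-1.60 ± 0.17) and Slc3a2 (-0.87 ± 0.15). Serotonin neurons have their cell bodies in the raphe nuclei and not in the cortex. The vesicular glutamate transporter gene Slc17a6 (2.44 ± 0.15, limit 1.53), the vesicular GABA transporter gene Slc32a1 (2.68 ± 0.17, limit 2.24) and the chloride exporter gene Slc12a5 of neurons (3.96 ± 0.14) were higher in PFC.

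Housekeeping machinery differed by complex. The counts lie beside 44.5% of all probe sets called higher, 16.8% higher under all 4 scalings and 34.8% lower. Of 67 kept genes of the cytosolic ribosome, 61 were lower in PFC and 6 were not called, with a median of -0.96 as deposited and a range of -2.10 to 0.10. The widest were Rps12, at 8.61, 8.65 and 8.59 in PFC and 10.73, 10.59 and 10.83 in blood (-2.10 ± 0.15), and Rplp0 (-2.07 ± 0.15). Many ribosomal genes have processed copies in the genome that share probes with them. Of 66 genes of the mitochondrial ribosome, 39 were higher as deposited and 4 lower, but 6 were higher under all 4 scalings, and the median of 0.59 turned to -0.69 under the housekeeping panel. Of 71 respiratory chain genes 46 were higher (15 under all 4 scalings) and 10 lower, with a median of 0.86 that turned to -0.49. Ndufa5 (3.25 ± 0.15) and Ndufs1 (2.71 ± 0.15) were the widest above and Ndufa1 (-2.74 ± 0.14) the widest below blood. Of 40 proteasome genes 24 were higher (4 under all 4 scalings) and 11 lower, the counts of 4 and 11 lying below the shares of all probe sets. The lower ones included the interferon-inducible subunits Psmb9, at 5.75, 5.75 and 5.63 in PFC and 9.09, 8.67 and 9.12 in blood (-3.24 ± 0.16), Psmb8 (-2.89 ± 0.19) and Psmb10 (-1.36 ± 0.16), and the activators Psme1 (-2.07 ± 0.16) and Psme2 (-1.54 ± 0.15). The constitutive subunit Psmb5, whose place Psmb8 takes in the immunoproteasome, was at 9.68, 9.68 and 9.61 in PFC and 8.51, 8.48 and 8.56 in blood, higher as deposited (1.14 ± 0.14) but at -0.14 under the housekeeping panel.

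The tissues were then compared for presence and for similar levels, the question behind the use of blood as a substitute for brain. Of the 16667 probe sets, 10796 (64.77%) had a mean above 6.2 in both tissues, 2970 (17.82%) in PFC alone and 2901 (17.41%) in blood alone. Present in both did not mean alike: 4587 (42.49%) of the 10796 were called higher and 3080 (28.53%) lower in PFC. A similar level, with the 95% confidence interval of the difference inside -0.5 to 0.5, was found for 1263 probe sets (11.7% of those present in both) as deposited. Among these was Actb, the cytoplasmic actin, at 12.41, 12.31 and 12.31 in PFC and 12.42, 12.46 and 12.55 in blood (-0.13 ± 0.14). Ube2d2 (0.00 ± 0.14) and Ube2d3 (-0.09 ± 0.15), a pair of ubiquitin-conjugating enzymes, Rpph1, the RNA of ribonuclease P (-0.06 ± 0.14), and the ATP synthase subunit Atp5f1b (0.01 ± 0.15) were others. The narrowest intervals were those of Ttll12, Cox6a2, Mif, Atg5 and Mbd1. Mif, a cytokine made by many cell types, was at 10.28, 10.27 and 10.25 in PFC and 10.17, 10.17 and 10.12 in blood (0.12 ± 0.14), and Mbd1, which binds methylated DNA, at 7.80, 7.77 and 7.77 in PFC and 7.77, 7.74 and 7.72 in blood (0.03 ± 0.14). These levels are alike only on the deposited scale, since the housekeeping panel moves each of them by the shift given above, and 673 probe sets met the rule there. The count also rests on which rats are in the fit: it was 366 without rat 2, 1147 without rat 5 and 255 without rat 7.

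PFC arrays of different rats were closer to each other than blood arrays. Spearman correlations over the 16667 probe sets were 0.9945 to 0.9961 among PFC arrays, 0.9566 to 0.9676 among blood arrays and 0.754 to 0.769 between the tissues. The median SD over rats was 0.0698 for probe sets present in PFC and 0.2085 for those present in blood. In 205 tested probe sets the 3 PFC values were identical, against 4 in blood, the cause of which was not tested. The genes with the widest SD in blood were Gzmk, Fbln1, Psat1, Ccl5 and Col1a1. Gzmk, a granzyme of cytotoxic T cells, stood at 8.62, 4.84 and 8.56, and the chemokine Ccl5 of the same cells at 10.16, 8.24 and 10.31, so that rat 5 was the lowest in both. Fbln1, at 9.77, 10.33 and 6.47, was low in rat 7, and Col1a1, at 7.95, 10.16 and 8.47, high in rat 5, both genes of the extracellular matrix. Psat1, an enzyme of serine synthesis, was high in rat 2, at 7.81, 5.42 and 5.93. Over the 3 PFC arrays the SD of these genes was 0.03, 0.07, 0.16, 0.11 and 0.06, in the order named. The T cell markers as a whole summed to 12.97, 12.43 and 13.14 on the log2 scale in blood of rats 2, 5 and 7, and the NK and cytotoxic markers to 11.62, 10.77 and 11.63. The genes with the widest SD in PFC were Slc39a12, Atp2b3, Cpne4, Mx2 and Syt2. Slc39a12, a zinc transporter, was at 6.97, 6.95 and 5.03 in PFC, low in rat 7, and Atp2b3, a calcium pump of the plasma membrane, at 8.28, 6.82 and 8.30, low in rat 5. Mx2, an interferon-induced GTPase, was low in rat 5 as well, at 7.29, 6.24 and 7.31, and in blood it was at 7.46, 8.92 and 8.98.

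Whether PFC stood apart from blood in the same way as the other brain region was tested by the difference between PFC and HC of the same rats. Of the 16667 probe sets, 4188 (25.1%) differed between PFC and HC, 2178 above and 2010 below, at an adjusted p under 0.05. Probe sets with a mean above 6.2 in HC alone were not among the 16667. With 2 rats the count was 2491 without rat 2, 2209 without rat 5 and 2327 without rat 7. Among probe sets higher in PFC than in blood, 2755 (37.15%) differed from HC, and among those lower than in blood 898 (15.5%), but few by over 1 on the log2 scale, namely 293 and 45. The genes named next are the widest among those called in PFC minus blood. The widest above HC was Cyp11b1, the steroid 11-beta-hydroxylase, at 8.36, 8.39 and 8.71 in PFC, 4.35, 3.30 and 4.57 in blood and 3.38, 3.31 and 3.05 in HC. Sema3a, an axon guidance factor, was at 8.43, 8.27 and 8.40 in PFC and 5.22, 5.19 and 5.12 in HC, and Rgs4, a brake on G protein signalling, at 11.69, 11.71 and 11.51 in PFC and 9.06, 8.97 and 8.83 in HC. Both exceeded blood, Sema3a by at least 2.79, since its blood values of 3.18, 4.30 and 4.17 were not above the receptor percentile, and Rgs4 by 5.98 ± 0.19. Next to them were Olr59, an olfactory receptor, at 7.29, 7.64 and 7.25 in PFC and 4.36, 4.54 and 4.45 in HC, and Tmem196, at 8.44, 8.75 and 8.75 and 5.85, 6.0 and 6.0. Among genes called in PFC minus blood, the widest below HC was Lrrc10b, at 6.12, 5.54 and 6.23 in PFC and 8.89, 8.86 and 9.09 in HC. Kctd4 followed, at 7.65, 7.82 and 8.15 in PFC and 9.97, 10.09 and 10.01 in HC. Nr3c2, the mineralocorticoid receptor, which is known to be abundant in hippocampal neurons, was at 7.56, 7.56 and 7.56 in PFC, 9.54, 9.66 and 9.64 in HC and 5.26, 5.22 and 5.24 in blood. Cd3e, a T cell receptor subunit, was at 5.09, 4.82 and 5.23 in PFC and 7.08, 7.08 and 7.27 in HC, and the cytokine Il16 at 5.29, 5.19 and 5.70 and 7.27, 7.29 and 7.51. Of the 12 T cell markers, 2 were above and Cd3e alone below HC. All 9 oligodendrocyte markers and 5 of 8 astrocyte markers were lower in PFC than in HC, with median differences of -0.89 and -0.26 on the log2 scale. Of the neuronal markers, 6 were higher and 4 lower (median 0.10). The myelin gene Mbp stood above blood by 4.06 ± 0.28 and below HC by a difference of -0.79 on the same scale.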

How the data were processed

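The authors hybridized RNA of blood, PFC and hippocampus to Rat Gene 1.0 ST arrays and used Affymetrix Power Tools for quantile normalization and for RMA, which condenses the probes of a set into 1 value per array. The deposited values are read as log2, the scale of RMA, and run from 1.53 to 14.01 in the 6 arrays compared. Of 29215 probe sets 1 had no value. Detection p-values, which the authors used as a second criterion of presence, were not used here. Groups and rats were taken from the labels, and 0 columns of other samples were left aside. No genome build of the array was given in the sources used here, and 3 arrays per tissue limit the precision.

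PFC minus blood was fitted with limma 3.58.1 in R 4.3.3, with a fixed block for the rat, moderated variances (eBayes) and p-values adjusted after Benjamini and Hochberg across the 16667 probe sets kept, and called at 0.05. All adjusted p-values come from limma. No exact test of single genes was made, because 3 pairs allow no sign-flip p under 0.25. Samples with the same animal number are of 1 rat, which pairs them, although deviations of the same rat from the tissue means correlated at -0.03, -0.08 and 0.06. The PFC and hippocampus arrays were fitted in the same way, over the same 16667 probe sets. The procedure was tested on simulated data. Figures were drawn with matplotlib 3.10.9.

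Probe sets were named by the annotation of the array platform. Old symbols were replaced by current ones of rat assembly GRCr8 (15279 of 15310 found). Of the tested probe sets 10460 had 1 symbol, 112 several and 6095 none. Each gene was represented by its probe set with the highest mean, and 16 of the 389 genes with several tested probe sets had calls in both directions. The 14 marker lists, 17 gene groups, 46 pairs, tests and alternatives were chosen with earlier results of these data known. Of 734 listed members, 668 were matched by symbol, and 630 were kept. The 66 others were not analysed here, and 38 were under the cut-off. A further gene group is not reported here.

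The rule for named genes selected the 10 genes widest in each direction with 1 sign in all rats. It also took up to 4 widest and 2 opposing members per list, and both genes of a pair. Further genes were 5 of similar level by mean level and 5 by interval, the 5 widest SDs per tissue, and the promoter examples. The 5 widest differences from hippocampus each way were taken among genes called in PFC minus blood. Not every member that the rule selected from a list is printed. Other list members were named for their role after their values were seen. Alternatives covered the block, arrays in the fit, variance model, filter, scaling, threshold and leaving out each rat. Random blocks used statmod 1.5.0.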

Additional observations from a re-analysis of the deposited data

Results flagged for a closer look

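The genes below are named in the comparison of PFC with blood and differed between PFC and hippocampus of the same rats by over 1 on the log2 scale (limma, adjusted p under 0.05, n = 3 rats), which equals a difference between their PFC minus blood and hippocampus minus blood contrasts. Above hippocampus were Cyp11b1 by 5.24 ± 0.14 (SE, adjusted p = 8.07e-05), Sema3a by 3.19 ± 0.06, Olr59 by 2.94 ± 0.07, Tmem196 by 2.70 ± 0.06, Rgs4 by 2.68 ± 0.05, Syt2, a synaptotagmin of fast-releasing neurons, by 1.52 ± 0.15, Hbb-b1 by 1.01 ± 0.09 and Tmod1 by 1.0 ± 0.06. Below it were Lrrc10b at -2.98 ± 0.11, Kctd4 at -2.15 ± 0.10, Cd3e at -2.10 ± 0.07, Nr3c2 at -2.05 ± 0.05, Il16 at -1.96 ± 0.07, Cpne4 at -1.94 ± 0.18 and Neurod6 at -1.02 ± 0.05. All 6 PFC and hippocampus values of each gene fell apart by tissue, which adds little, since the genes were chosen by the size of this difference. The share of all probe sets that did so was not counted. Values of Cyp11b1 (3.38, 3.31 and 3.05) and Olr59 (4.36, 4.54 and 4.45) in hippocampus were not above the receptor percentile of 4.92 there, so that the data support differences of at least 3.56 for Cyp11b1 and 2.47 for Olr59. Hbb-b1 and Tmod1 are both carried by red cells, and Hbb-b1 stood at 9.06, 9.69 and 8.76 in PFC and 8.22, 8.42 and 7.85 in hippocampus of rats 2, 5 and 7.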

How the results depend on the processing

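The calls rest mostly on the scaling and the filter. The count of probe sets higher in PFC (7415) was 2802 with the housekeeping panel held equal and 3517 in a test against a log2 difference of 1, and that of probe sets lower (5793) was 15037 with the housekeeping panel, 8879 with the classical reference genes, 8702 with the 75th percentile, 12247 without a filter, 3713 at a cut-off of 7.2, 2830 with 1 probe set per gene and 2084 in the test against 1. Without 1 rat these counts were 6934 to 7078 and 5331 to 5548. Without the replicate block 7528 were higher and 5904 lower, against 7415 and 5793 with it, and the count between PFC and hippocampus was 4185 against 4188, so that the pairing by rat moved no count of calls by over 1.5 times. Of 198 genes named in the text, 4 lost their call without the block. Probe sets present in both tissues (10796) numbered 5775 at 7.2, 16899 with the receptor percentiles as cut-offs and 6631 with 1 probe set per gene. PFC alone (2970) held 1803 with 1 probe set per gene and 905 with the housekeeping panel, and blood alone (2901) held 986 with the receptor percentiles, 1389 with 1 probe set per gene and 8266 with the housekeeping panel. Similar levels (1263) numbered 1913 with all 9 arrays in the fit, 750 at 7.2, 673 with the housekeeping panel and 255 to 1147 without 1 rat, depending on the rat left out. Opposed pairs (22) were 14 in the test against 1 and 20 to 24 under the other alternatives. The count between PFC and hippocampus was 2209 to 2491 without 1 rat. Medians of gene groups changed sign under the scalings, which shift all genes downwards. With the housekeeping panel held equal, the median of the panel itself was -0.062, a value set by the scaling and no result. That of the classical reference genes was -0.012. The other medians were -1.65 for microglia, -1.03 for striatum, -0.99 for the membrane skeleton, -0.88 for G proteins and -0.90 for phosphoinositide enzymes. They were -0.97 for the BAF complex, -0.80 for the proteasome, -0.49 for the respiratory chain and -0.69 for the mitochondrial ribosome. With the classical reference genes they were -0.58 for microglia, -0.25 for striatum, -0.21 for the membrane skeleton, -0.057 for G proteins, -0.11 for phosphoinositide enzymes and -0.19 for the BAF complex, and with the 75th percentile -0.52 for microglia, -0.18 for striatum, -0.14 for the membrane skeleton, -0.045 for phosphoinositide enzymes and -0.12 for the BAF complex. At a cut-off of 7.2, which removes members and shifts none, those of microglia and the membrane skeleton were -0.48 and -0.10. Genes that changed sign with the housekeeping panel were Coro1c (-0.43), Drd1 (-0.54), Inppl1 (-0.90), Mbnl2 (-0.068), Ppp1r1b (-0.80), Psmb5 (-0.14), Smarca4 (-0.42), Ss18l1 (-0.84), Stx4 (-0.55), Stx7 (-0.19) and Vamp7 (-0.42). With the classical reference genes Inppl1 (-0.11), Ppp1r1b (-0.008) and Ss18l1 (-0.058) did so, and with the 75th percentile Inppl1 (-0.045). Low blood or PFC signals limit the widest differences, since values near background compress them.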

Other observations

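Some genes differed between rats in the same way in both brain regions. Slc39a12 stood at 6.97, 6.95 and 5.03 in PFC and 7.85, 7.74 and 6.05 in hippocampus of rats 2, 5 and 7, lowest in rat 7 in each. Atp2b3 was at 8.28, 6.82 and 8.30 and 9.09, 7.39 and 9.06, and Mx2 at 7.29, 6.24 and 7.31 and 7.55, 6.18 and 7.59, lowest in rat 5 in each. In blood the values of the same rats were 4.62, 5.07 and 5.26 for Slc39a12, 5.70, 6.76 and 6.88 for Atp2b3 and 7.46, 8.92 and 8.98 for Mx2, of which those of Slc39a12 were not above the receptor percentile of 5.58 and have no order. These genes were named for the width of their SD in PFC, and no test was made over 3 rats. Cpne4 and Syt2 were named by the same rule, and their order over rats in hippocampus is not given here.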
